A study of Mus musculus with 4 samples.

Results

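Mouse liver RNA contained 234 transcribed loci that lay between annotated genes and were assembled in more than 1 library. They were chosen by position and length alone. An assembled locus counted if it was 500 bases or longer and lay over 5000 bases from every gene of any type in GENCODE mouse release M21. Overlapping loci were merged across libraries, and a merged locus was kept if it was found in 2 or more of the 4 libraries. The 234 intergenic loci stood among 21345 merged loci of 500 bases or more. A further 690 intergenic merged loci were found in 1 library only and were not kept, and 20421 merged loci overlapped a gene or lay within 5000 bases of one.

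The study asked how loss of hemojuvelin affects the liver transcriptome. Hemojuvelin (Hjv, Hfe2 in this annotation) is a co-receptor for bone morphogenetic proteins on hepatocytes that drives expression of the iron hormone hepcidin. RNA was sequenced from whole liver of male C57BL/6 mice, in 2 wild type libraries (WT) and 2 libraries homozygous for a disruption of Hjv (knockout) on a C57BL/6 background. Wild type mice came from a commercial supplier and the knockout line from another laboratory, and the labels do not say that they were littermates. All groups, the wild type included, were moved at 5 weeks of age to the iron-poor AIN-93G diet (2.5 mg/kg iron), kept on it for 50 days and sampled at 12 weeks. The labels do not tie each library to a separate animal, so p-values measure the spread between these libraries, which may be technical.

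Much of a mammalian genome outside annotated genes is transcribed at a low level. Known sources include long noncoding RNAs with their own promoters, short unstable RNAs made at active enhancers, readthrough past the end of a neighbouring gene, unannotated first or last exons, and transcribed repeats or pseudogene copies. In hepatocytes much of the RNA pool comes from a small number of secreted-protein and metabolic genes, several of which lay next to loci described here. The deposited loci carry no strand and no exon structure, so none of these sources was assigned to a locus.

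Sequence was available where a RefSeq gene starts inside an intergenic locus. RefSeq (GRCm38.p6) annotates more genes than GENCODE M21 in these regions, and 10 of its promoter windows had their start inside 1 of the 234 loci. The windows below are 4 of the 10, from noncoding RNA genes whose loci were found in 1 genotype or had higher values in 1 genotype. The window of Adh5, in another locus found in the knockout libraries only (chr3:138436302-138437308, 1.30 and 0.773 scaled FPKM), belongs to a coding gene and is not printed. Each runs 5′ to 3′ on the gene's strand, and capitals mark the 50 bases from the annotated start onwards, after 250 bases of upstream sequence in lower case. Urml (chr13:68234682-68234981, minus strand) starts in a locus found in wild type libraries only. Gm52506 (chr2:27572944-27573243, plus strand) and Gm39776 (chr2:27577404-27577703, plus strand) start in adjacent loci with higher values in both knockout libraries. Gm52012 (chr12:24700626-24700925, minus strand) starts in a locus that met the rule in the knockout libraries only.
Urml: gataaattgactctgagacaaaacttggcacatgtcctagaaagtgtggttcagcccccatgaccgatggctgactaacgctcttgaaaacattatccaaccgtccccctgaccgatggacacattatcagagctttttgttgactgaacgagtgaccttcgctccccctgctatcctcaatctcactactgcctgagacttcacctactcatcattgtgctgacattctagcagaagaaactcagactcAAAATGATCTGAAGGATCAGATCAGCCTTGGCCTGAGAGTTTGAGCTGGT
Gm52506: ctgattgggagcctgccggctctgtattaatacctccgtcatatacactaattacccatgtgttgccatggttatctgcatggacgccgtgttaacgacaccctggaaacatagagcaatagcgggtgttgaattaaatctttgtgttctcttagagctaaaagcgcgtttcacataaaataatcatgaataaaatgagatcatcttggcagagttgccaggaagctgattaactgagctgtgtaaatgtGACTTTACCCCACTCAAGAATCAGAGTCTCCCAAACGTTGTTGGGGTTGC
Gm39776: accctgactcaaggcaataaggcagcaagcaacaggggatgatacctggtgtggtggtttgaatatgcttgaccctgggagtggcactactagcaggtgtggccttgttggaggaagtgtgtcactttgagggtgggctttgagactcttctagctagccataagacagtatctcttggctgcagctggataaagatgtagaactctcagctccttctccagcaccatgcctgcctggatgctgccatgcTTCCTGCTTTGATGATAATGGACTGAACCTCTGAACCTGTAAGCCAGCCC
Gm52012: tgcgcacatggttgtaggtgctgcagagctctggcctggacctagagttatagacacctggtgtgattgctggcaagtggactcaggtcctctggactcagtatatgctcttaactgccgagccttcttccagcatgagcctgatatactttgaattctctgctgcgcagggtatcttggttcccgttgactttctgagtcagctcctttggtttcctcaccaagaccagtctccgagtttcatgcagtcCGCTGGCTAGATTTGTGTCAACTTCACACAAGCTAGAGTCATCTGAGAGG

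These windows differed in composition. The Gm52506 window held 9 CpG dinucleotides at 43.3% GC and the Gm39776 window held 0 CpG at 51.3% GC, although the genes start in adjacent loci. The Urml and Gm52012 windows held 6 CpG each, at 47.0% and 50.7% GC. The median over 32851 RefSeq promoters was 7 CpG and 52.7% GC. Of the motifs searched on both strands, GTTAAT, part of the binding site of the hepatocyte factor HNF1, stood 22 bases before the Gm52506 start, and CCAAT stood 247 bases before it. GTTAAT occurred in 7.10% of all RefSeq promoters and in 2 of the 10 windows here, and CCAAT in 37.4% and in 3 of the 10. In 1 of those windows, that of Gm40055, the GTTAAT and CCAAT matches overlapped each other. TATAAA was in 13.6% of all promoters and 2 of the 10 windows. GGGCGG (35.7% of all promoters), GGCGCC, the core of a BMP response element (11.9%), and CAAAGTCCA, an HNF4 site (0.475%), were in 0 of the 10, which says only that these letters are not in these windows.

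The tissue check bears on every value that follows. Of 8 hepatocyte markers 7, 7, 7 and 6 had an assembled locus in WT replicates 1 and 2 and knockout replicates 1 and 2, with transthyretin (Ttr) at 3544 to 6425 deposited FPKM. Other cell types of the liver were present as well. Kupffer cell markers had loci for 5 or 6 of 6 with a summed level of 82.3 to 107 FPKM, endothelial markers for 5 of 5, and stellate markers for 4 of 4. Lymphocyte markers had loci for 3, 2, 0 and 3 of 4. Among erythroid markers, the heme synthesis gene Alas2 had a locus in every library, at 72.5 and 70.8 FPKM in wild type against 46.6 and 48.2 in knockout. The globin gene Hbb-bs had one in WT replicate 1 and knockout replicate 1 only. The part of these differences in the results was not tested. Fewer cells of a type and less RNA per cell cannot be told apart in whole tissue. The targeted gene Hfe2 was listed at 8.62 and 24.8 FPKM in wild type, with no locus in knockout replicate 1, and was listed at 0.226 FPKM in knockout replicate 2.

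The libraries differed in depth and in how far transcripts were assembled, and the number of intergenic loci did not separate by genotype. Depth, read from the bounds by taking their smallest step as 1 fragment, was 87.0, 51.3, 55.0 and 132 M fragments in WT replicates 1 and 2 and knockout replicates 1 and 2. Loci that met the length and distance rule numbered 312, 215, 169 and 787 in the same order, or 1.30%, 1.02%, 0.702% and 3.34% of the loci of 500 bases or more in each library. Knockout replicate 2, the deepest, gave the most and reached the lowest level, with its weakest qualifying locus at 0.0873 FPKM against 0.192, 0.323 and 0.494 in the others. Knockout replicate 1 gave the fewest, although it held the most loci of any length, 56237 against 26238 to 41541. Without knockout replicate 2 the rule kept 146 merged loci in place of 234. The part that depth and assembly have in the presence of a locus was not tested.

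The 234 intergenic loci were short compared with genes. Their merged span ran from 521 to 14169 bases with a median of 1676.5, and together they covered 496202 bases. Loci found in all 4 libraries were longer, with a median of 2664 bases, against 1464 for those found in 2 or 3. A merged span grows with the number of libraries merged, so that difference has no test. They lay on all autosomes and on both sex chromosomes, with 25 each on chromosomes 1 and 2 and 20 each on chromosomes 4 and 7. At the limits of the rule, the deposited loci nearest to 500 bases measured 499 and 498 bases just outside (0.803 and 7.97 FPKM) and 500 and 501 just inside (1.41 and 0.614 FPKM). At the distance limit, loci at 4993 and 4988 bases from a gene fell outside (0.236 and 0.364 FPKM) and loci at 5001 and 5003 bases inside (8.40 and 16.7 FPKM). The last pair belongs to 1 merged locus next to Slco1a1, an organic anion transporter of hepatocytes.

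Many of the loci lay close together. Joining loci separated by at most 10000 bases gave 162 runs, of which 121 held a single locus and 41 held the other 113. Neighbouring loci of a run may be pieces of 1 transcript, so they are not independent observations. The largest run held 8 loci over 32087 bases (chr7:37182912-37214998), between the long noncoding RNA genes Gm28075 and Gm28077. The next held 5 loci over 23282 bases upstream of Ccser2 on chromosome 14. Another 5 loci spanned 19472 bases between Gm9925 and Ska1 on chromosome 18. Among several runs of 4 was that between the epoxygenase genes Cyp2j9 and Cyp2j5 on chromosome 4. A further run of 4, on chromosome 2, lay between Gm13421 and Rxra, the retinoid X receptor that pairs with many nuclear receptors of the liver.

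Presence by library did not follow genotype for most of the loci. All 4 libraries held 52 of the 234 loci (22.2%). The largest class of 2 libraries was WT replicate 1 with knockout replicate 2, the 2 deepest, with 49 loci. Found in 3 libraries were 31 loci missing from knockout replicate 1 alone, 14 missing from WT replicate 2, 12 missing from knockout replicate 2 and 2 missing from WT replicate 1. Both wild type libraries alone held 23, and both knockout libraries alone held 25. The same counts over the other merged loci are not given here. Absence by the rule often meant a shorter piece and not an empty region. In knockout replicate 1 the rule found 111 loci, while a locus shorter than 500 bases overlapped 80 more, and 42 had no locus of any length. In WT replicates 1 and 2 and knockout replicate 2 the rule found 183, 144 and 193, and 27, 56 and 22 had no locus of any length. A region with no assembled locus is not a region at 0.

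**Figure D1:**
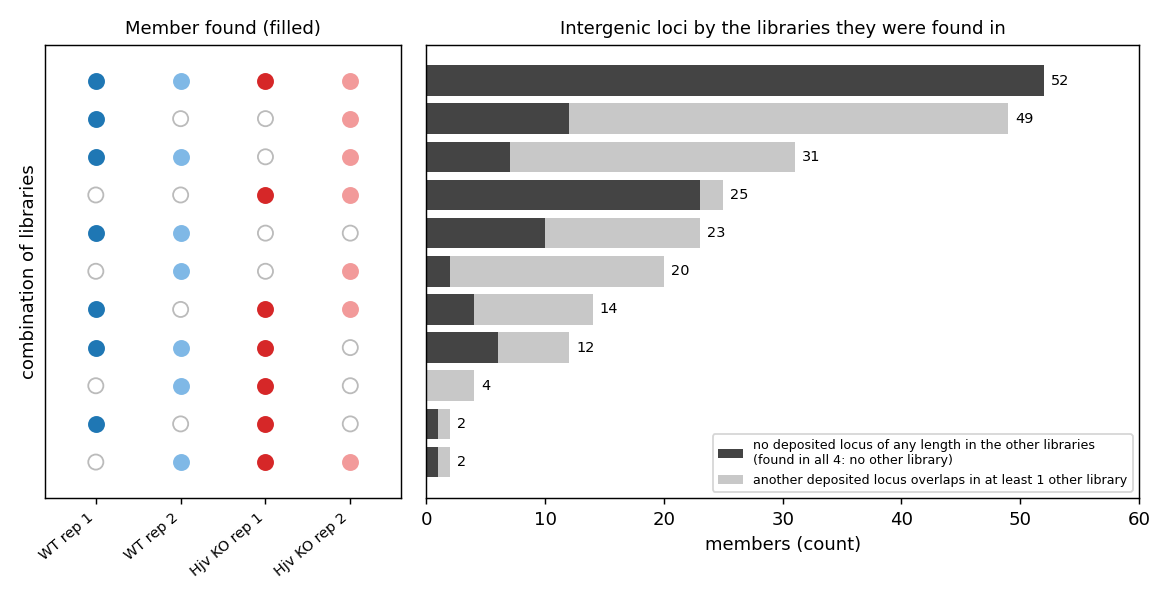
Number of intergenic loci (x axis, count) for each combination of libraries in which they were found (y axis, filled circles). The dark part of a bar counts loci with no deposited locus of any length in the remaining libraries: 23 of the 25 found in both knockout libraries only, 10 of the 23 found in both wild type libraries only, and 12 of the 49 found in WT replicate 1 and knockout replicate 2.

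Nearly all of the loci had the arithmetic of a single unspliced stretch. The bounds that Cufflinks deposited with each FPKM are whole numbers of fragments when they are multiplied by the right transcript length. For 770 of the 793 deposited loci in the 234 merged loci (97.1%), this held, within 0.05 of a fragment, at the full length of the locus, as for a transcript with no intron. All the deposited loci of 221 merged loci had this property. The remaining 13 lay near members of multicopy families in several cases, among them the class I histocompatibility gene H2-Q10 and the antigen-presenting gene Cd1d1. Over the whole set of loci of 500 bases or more, 97.8% of 1483 intergenic loci, 98.1% of 4172 loci within 5000 bases of a gene and 27.1% of 87059 loci overlapping a gene were whole at full length.

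Length did not remove the contrast with genes. At 4000 bases and over, 30 of 32 intergenic loci (93.8%) and 1077 of 48997 loci overlapping a gene (2.20%) were whole at full length. Under 1000 bases the shares were closer, at 98.4% for intergenic loci and 79.5% to 90.2% over the 4 libraries for loci overlapping a gene. A locus that shares reads with a copy elsewhere also gives bounds that are not whole, so the measure does not count introns. The tolerance was the same at every number of fragments, and the classes were not matched by level. The 4 libraries were assembled from the same genome and many of the same genes, and no test was made of this contrast.

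**Figure D2:**
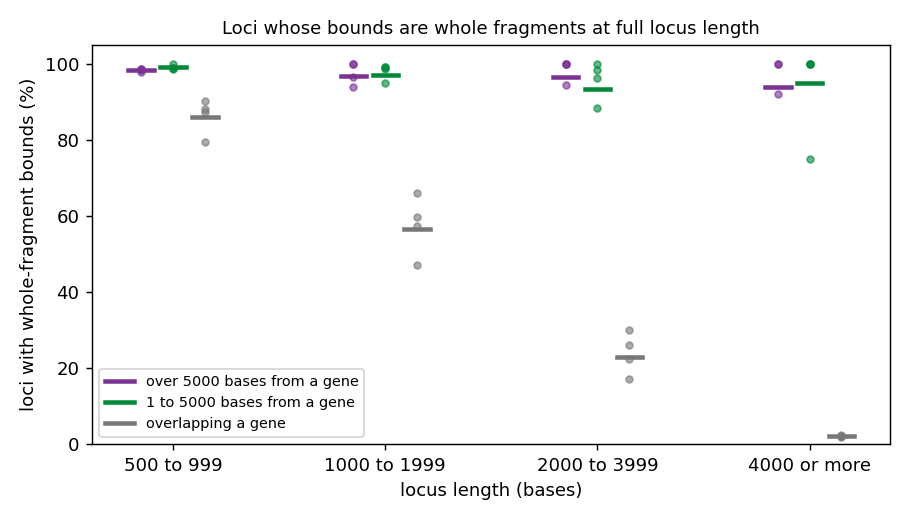
Share of deposited loci whose confidence bounds are whole fragments at full locus length (y axis, percent) by locus length in bases (x axis). Points are the 4 libraries and bars the pooled share, for loci over 5000 bases from a gene, within 5000 bases of one, and overlapping one: the overlapping class ends at 2.20% at 4000 bases and over, where the intergenic class stands at 93.8%.

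Most of the intergenic loci had an annotated gene within 20000 bases. The nearest gene of any type lay at a median of 9872 bases (5001 to 147596), and for 167 of the 234 loci it lay within 20000. That gene was protein-coding for 146 loci, a long intergenic noncoding RNA for 30 and a processed pseudogene for 21. The locus lay on the downstream side of its nearest gene for 139 (59.4%) and on the upstream side for 95. Among the 690 loci found in 1 library the downstream share was 54.9%. The nearest coding gene had a locus in all 4 libraries for 170 of the 234, with a median of 14.5 scaled FPKM. RefSeq covered part of the set that GENCODE did not, and 98 of the 234 loci (41.9%) overlapped the span of a RefSeq gene, 65 of them a long noncoding RNA gene and 32 a coding gene. In 32 loci the overlapping RefSeq gene had the symbol of a GENCODE neighbour, so the RefSeq model of that neighbour reached further.

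Levels were low. Over the 52 loci found in all 4 libraries, the median deposited FPKM (fragments per kilobase, scaled to the fragments of the library) was 1.26 and 1.22 in the wild type libraries against 2.31 and 1.07 in the knockout libraries. The medians over the 10426 other merged loci in all 4 libraries were 4.92, 4.82, 7.34 and 5.59. Knockout replicate 1 stood highest in both sets, and the scaling between libraries is set by the whole table. Over 5 FPKM lay 13 of 183 loci in WT replicate 1, 13 of 144 in WT replicate 2, 18 of 111 in knockout replicate 1 and 5 of 193 in knockout replicate 2. The intergenic loci of a library rested on a median of 82.0, 55.5, 99.5 and 104 fragments. Values from here on are FPKM scaled by the median of ratios between libraries, unless named as deposited.

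Some of the highest levels belonged to loci missing from at least 1 library. The 5 given here were picked with their values in view. A locus at chr6:3200766-3201671, 6198 bases from Gm2651, had 392 and 369 scaled FPKM in wild type with 777 in knockout replicate 1, and none in knockout replicate 2. One at chr17:35479745-35480645, 5182 bases downstream of H2-Q10, a secreted class I molecule made in liver, measured 72.2 in WT replicate 1 and 186 and 225 in the knockout libraries, with a shorter piece alone in WT replicate 2. The locus at chr15:76561820-76562478 had 35.9 and 42.0 in wild type against 23.8 in knockout replicate 1. The locus at chr19:4064883-4065923, near the glutathione transferase Gstp3, measured 43.1 in WT replicate 2 and 40.7 in knockout replicate 1. At chr6:141900211-141902281, next to Slco1a1, the value was 11.9 in WT replicate 2 and 8.47 in knockout replicate 2, with knockout replicate 1 between them. None of the 5 could be tested, since each lacked a value in at least 1 library.

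The comparison of knockout with wild type was fitted by limma to all merged loci with a value in all 4 libraries and at least 1 FPKM in 2 of them. Of the 52 intergenic loci in all 4 libraries, 42 passed that filter, in 32 runs, and 10 did not. Among the 42, 0 passed an adjusted p of 0.05, and the background over all 10203 merged loci tested was 0.0% called. The smallest adjusted p of an intergenic locus by limma was 0.658. The 2 pairs were not equally close. Over all merged loci tested, the log2 difference within the knockout pair had an SD of 1.47, against 0.617 within the wild type pair. The fit takes 1 spread per locus from both pairs, and the part of this in the calls was not tested. Without knockout replicate 2, limma called 391 merged loci and 0 of the intergenic ones, and without knockout replicate 1 it called 4 and 0. At an unadjusted p under 0.05, 5 of the 42 were called, 3 higher and 2 lower in knockout, against 3.45% higher and 4.02% lower over all merged loci (7.47% together). For 1 locus, exact permutation of 2 libraries against 2 cannot give a p below 1 in 3.

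Separation of the groups was counted in the same way. Each knockout library exceeded each wild type library for 11 of the 42 intergenic loci (26.2%), against 20.0% of all merged loci tested. They lay below for 10 (23.8%), against 22.3%, and 21 overlapped. On the values as deposited, without scaling, 12 of 41 were higher (29.3%, against 32.8% of all merged loci) and 3 lower (7.32%, against 9.24%). Without knockout replicate 2, 23 of 47 were higher (48.9%, against 38.4%) and 13 lower (27.7%, against 41.2%). Without knockout replicate 1, 11 of 38 were higher (28.9%, against 42.3%) and 23 lower (60.5%, against 36.7%). Which side held more of the intergenic loci thus depended on the knockout library used. With a ratio of group means of 2 or more as well, 5 of the 42 intergenic loci were higher in knockout (11.9%, against 6.69% of all merged loci) and 2 lower (4.76%, against 2.69%). These shares rest on few loci, and their difference from the background was not tested. The median log2 difference was 0.02 over the 42 intergenic loci and 0.03 over all merged loci tested, and the intergenic loci ranged from -1.62 to 0.98.

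**Figure D3:**
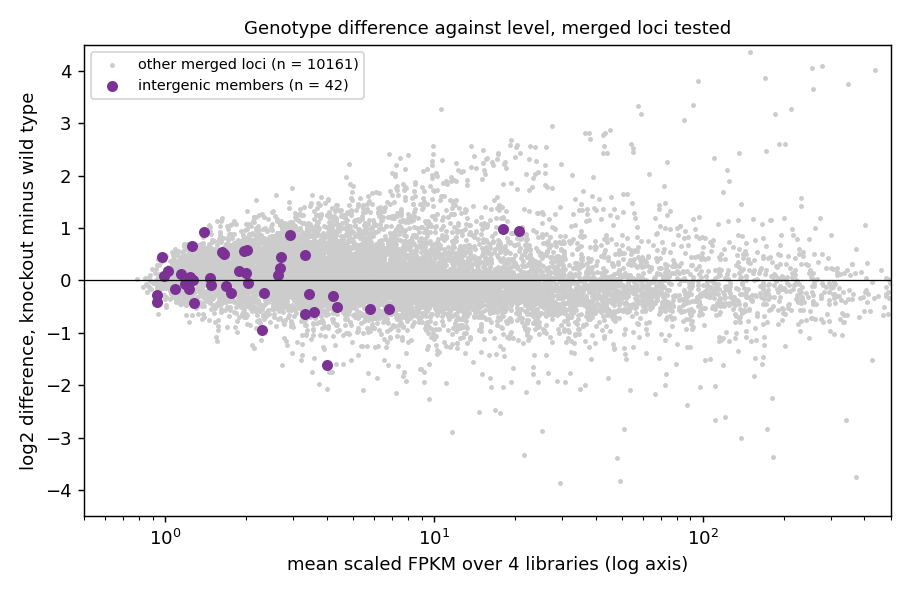
Log2 difference, knockout minus wild type (y axis), against mean scaled FPKM over the 4 libraries (x axis, log axis) for the 10203 merged loci tested, with the 42 intergenic loci in purple. The intergenic loci run from -1.62 to 0.98 and sit mostly at low levels, and 147 other merged loci lie outside the axes.

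The 2 loci with lower values in knockout and a ratio of 2 or more lay inside RefSeq noncoding genes, 236189 and 267164 bases from the nearest coding genes, Wdr72 and Zfp536. On chromosome 9 (chr9:74519497-74521687, inside the RefSeq long noncoding RNA gene Gm33459, 38895 bases from Gm28622), the values were 7.79 and 5.27 scaled FPKM in wild type against 1.92 and 1.00 in knockout. Both wild type values lay above both knockout values, with the group means at a ratio of 4.47. The log2 difference by limma was -1.62 with an SE of 0.34 (adjusted p = 0.658). In the chromosome 7 run, chr7:37201111-37204971, inside the RefSeq gene Gm29919, measured 3.67 and 2.97 in wild type against 1.52 and 0.996 in knockout. The groups did not overlap there either, and the log2 difference by limma was -0.94 with an SE of 0.26 (adjusted p = 0.658).

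Between Gm13421 and Rxra, 3 loci of 1 run had higher values in both knockout libraries. All 3 passed the filter of 1 FPKM in 2 libraries through the knockout libraries only. The filter thus favoured this direction, and their test is no support for it. The locus that holds the start of Gm52506 (chr2:27572880-27575441, 100999 bases from Rxra) measured 0.780 and 0.538 scaled FPKM in wild type against 2.11 and 2.17 in knockout. Its log2 difference by limma was 0.92 with an SE of 0.22 (adjusted p = 0.658), a ratio of means of 3.25. The next locus, which holds the start of Gm39776 (chr2:27575539-27580134), measured 0.712 and 0.628 against 1.45 and 1.12. The last, chr2:27586292-27588877, measured 0.778 and 0.706 against 2.15 and 1.42, a ratio of means of 2.41 with an adjusted p of 0.661 by limma. Between them, chr2:27580248-27586001 met the rule in WT replicate 2 (1.27) and knockout replicate 2 (0.860) and held only shorter pieces elsewhere. Wdr5, the nearest coding gene to these loci and a subunit of histone methyltransferase complexes, measured 8.25 and 9.23 in wild type against 7.56 and 10.4 in knockout.

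Near Car3, carbonic anhydrase 3, adjacent loci inside the same RefSeq gene, Gm41999, differed in opposite senses. The locus chr3:14846297-14848275, 15237 bases upstream of Car3, measured 12.4 and 15.1 scaled FPKM in wild type against 32.2 and 23.2 in knockout, with no overlap. Its log2 difference by limma was 0.95 with an SE of 0.26 (adjusted p = 0.658). The adjacent locus, chr3:14848457-14851241, 12271 bases from Car3, measured 6.46 and 7.33 in wild type against 6.29 and 3.02 in knockout, a log2 difference of -0.54 with an adjusted p of 0.709 by limma, and -0.12 without knockout replicate 2. Car3 itself measured 440 and 459 in wild type against 683 and 1280 in knockout, a log2 difference of 1.06. The difference between the adjacent loci was not tested.

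On chromosome 14, upstream of Ccser2, the 5 loci of the run did not share a direction. The longest, chr14:36981637-36988007, measured 1.75 and 1.74 scaled FPKM in wild type against 4.77 and 3.38 in knockout, a log2 difference by limma of 0.87 with an SE of 0.26 (adjusted p = 0.658). Its neighbour chr14:36988650-36993425 gave 1.07 and 1.06 in the WT libraries, with 3.63 in knockout replicate 1 and 0.873 in replicate 2, so the knockout libraries stood on either side of the wild type pair. At the far end of the run, chr14:36995071-36998010 measured 1.21 and 1.19 against 0.879 and 0.464, a log2 difference of -0.41. That locus passed the filter through the wild type libraries only. Ccser2 itself measured 5.30 and 5.57 in wild type against 7.37 and 4.94 in knockout.

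Other named loci lay beside genes of hepatocyte function. Downstream of F5, coagulation factor V, chr1:164228212-164229071 measured 11.3 and 11.5 scaled FPKM in wild type against 16.8 and 32.7 in knockout. The 2 knockout values lay far apart, and the log2 difference by limma was 0.98 with an SE of 0.37 (adjusted p = 0.666). It was 0.51 without knockout replicate 2 and 1.49 without knockout replicate 1. F5 measured 62.8 and 65.4 in wild type against 41.7 and 142 in knockout, so knockout replicate 2 was the highest library for the gene as well. Upstream of Cps1, the first enzyme of the urea cycle, chr1:67098236-67104860 measured 1.34 and 1.50 against 2.73 and 2.52, a log2 difference of 0.58 with an adjusted p of 0.671 by limma. Its run held another locus in all 4 libraries, chr1:67114722-67116509, at 1.91 and 1.31 against 1.35 and 0.565. The 2 Cps1 loci thus had differences of opposite sign.

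Of the 10 highest loci in all 4 libraries, the 6 not yet described had groups that overlapped or means that differed by less than 2-fold. Near Slc38a4, an amino acid transporter of hepatocytes, chr15:97106650-97107258 measured 7.20 and 9.17 in wild type against 6.45 and 4.32 in knockout. On chromosome 12, 104711 bases upstream of Apob, the apolipoprotein of very low density lipoprotein, chr12:7870551-7872937 measured 5.43 and 3.42 against 3.97 and 1.49. The locus at chr19:37254696-37261262, near the insulin-degrading enzyme gene Ide and inside the RefSeq gene 4931408D14Rik, measured 3.08 and 4.56 against 3.62 and 2.41. The groups of the last pair overlapped. At chrX:48963766-48965477, near Enox2, the values were 4.46 and 5.02 against 3.74 and 3.63. At chr15:76560512-76561058, near Adck5, they were 4.20 and 5.59 against 6.28 and 1.31, and without knockout replicate 2 the sign of that difference turned. At chr6:117883977-117884591, near the zinc finger gene Zfp239, they were 2.33 and 2.83 against 4.85 and 3.25.

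**Figure D4:**
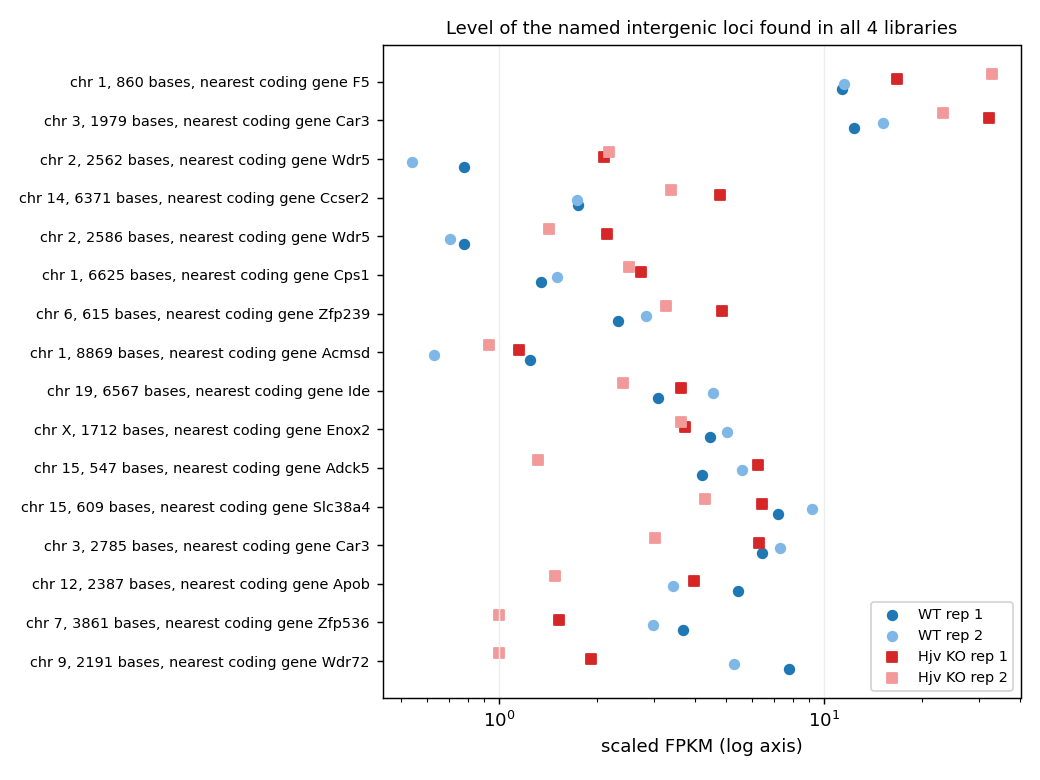
Scaled FPKM (x axis, log axis) of the 16 named intergenic loci that entered the test, ordered by log2 difference, with 1 point per library (circles for wild type, squares for knockout). The locus near F5 stands at the top, with 11.3 and 11.5 in wild type against 16.8 and 32.7 in knockout, and the chromosome 9 locus at the bottom, with 7.79 and 5.27 against 1.92 and 1.00.

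Among the 5 longest loci the groups overlapped in 4. The longest of all, chr6:121141130-121155298, 14169 bases long and 10131 bases upstream of Mical3, an actin-modifying enzyme, measured 0.965 and 0.881 scaled FPKM in wild type, with 2.76 in knockout replicate 1 and 0.903 in replicate 2. It did not pass the filter. Between the Cyp2j genes, chr4:96603387-96612082 measured 0.684 and 0.371 in wild type against 0.850 and 0.559 in knockout and was not tested either. Upstream of Acmsd, an enzyme of tryptophan breakdown, chr1:127710468-127719336 spanned 8869 bases and measured 1.24 and 0.631 against 1.16 and 0.930. The 2 other long loci, near Ide and Cps1, are given above.

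Differences at intergenic loci were set beside those of their neighbours. For 31 tested loci whose nearest coding gene (22 genes) was also measured in all 4 libraries, the 2 log2 differences had the same sign for 16. Spearman's rho across those 31 loci was 0.106, given as a description, since loci of 1 run share a neighbour and both values come from the same libraries.

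In both knockout libraries and neither wild type library 25 loci were found, and 23 of them, in 21 runs, had no locus of any length in wild type. Their levels ran from 0.761 to 6.06 scaled FPKM in knockout replicate 1 (median 1.47) and from 0.186 to 5.70 in knockout replicate 2 (median 0.548). The highest, chr19:39379702-39381130, lay inside the RefSeq span of the cytochrome P450 gene Cyp2c39 and 8426 bases downstream of Cyp2c38 in GENCODE, at 6.06 and 5.70. Next came chr8:40645063-40647449 upstream of Mtmr7, a phosphoinositide phosphatase gene, at 3.84 and 2.49, and chr7:37182912-37185099, the first locus of the chromosome 7 run, at 3.01 and 2.52. Lower values were found at chr4:150704105-150709172 inside the RefSeq gene Gm36600 (3.00 and 1.29), chr7:36971720-36972397 (1.02 and 1.67) and chr19:8033061-8034268 near the organic anion transporter gene Slc22a28 (2.12 and 0.410). The locus with the Gm52012 start, chr12:24696116-24700974, upstream of the ribonucleotide reductase gene Rrm2, measured 2.30 and 1.37, but WT replicate 2 held a shorter piece there.

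In both wild type libraries and neither knockout library 23 loci were found, and 10 of them, in 6 runs, had no locus of any length in knockout. Levels were 0.453 to 50.3 scaled FPKM in WT replicate 1 (median 2.90) and 0.551 to 15.8 in WT replicate 2 (median 2.30). The highest were a pair on chromosome 2 between the processed pseudogene Gm13655 and Gm24574. They belong to a run of 4 merged loci over 11241 bases that was not wild type only. The run held 4, 3, 0 and 1 deposited loci in WT replicates 1 and 2 and knockout replicates 1 and 2. The locus chr2:75640868-75642214 measured 50.3 and 15.8, and chr2:75639081-75640682 measured 26.8 and 12.2. These rested on 2428 and 894 fragments for the first and 3111 and 508 for the second, far more than the median of 82.0 and 55.5 for intergenic loci in those libraries. The nearest coding gene, Hnrnpa3, which encodes an RNA-binding protein, was assembled in all 4 libraries, at 39.1 and 34.3 in wild type against 26.4 and 116 in knockout.

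The RefSeq gene Urml, whose start is printed above, held 3 of the 10. Along it, chr13:68227605-68229763 measured 7.18 and 5.32 scaled FPKM, chr13:68231706-68233023 measured 4.38 and 3.51, and chr13:68234167-68234886 measured 4.99 and 5.55. WT replicate 1 held 994, 399 and 228 fragments in them and WT replicate 2 held 504, 202 and 124. Neither knockout library held a locus of any length over the 3. The nearest GENCODE gene, AA414992, lay 44736 to 51298 bases away. The last of the named loci, chr18:74896045-74897836, measured 1.42 and 0.720 at 45.5 and 57.0 fragments.

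These 1-genotype loci have no test, since a missing locus gives no value, and they stand beside 49 loci that the 2 deepest libraries shared across genotypes. Of those 49, 12 had no locus of any length in the remaining 2 libraries. The share of other merged loci found in 1 genotype only is not given here. Whether intergenic loci were limited to 1 genotype more often than other assembled loci was therefore not shown.

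**Figure D5:**
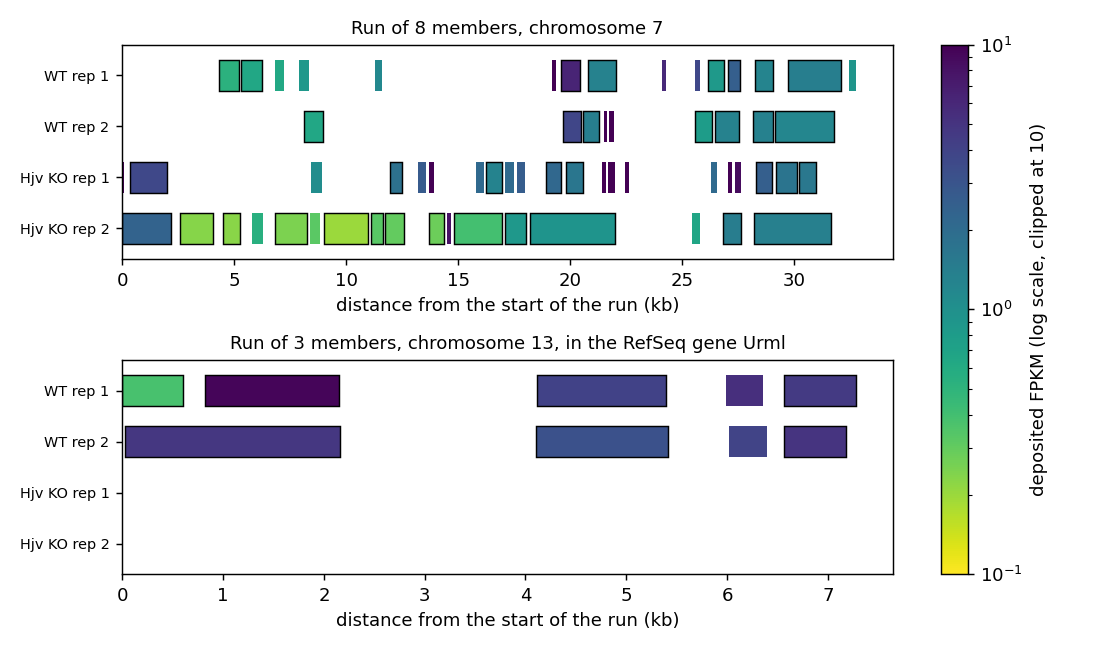
Deposited loci in each library (y axis) along the chromosome 7 run of 8 loci and along the Urml run (x axis, distance from the start of the run in kb), coloured by deposited FPKM on a log scale clipped at 10. Black outlines mark loci that met the rule, and the knockout libraries have no locus in the Urml run.

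The chromosome 7 run held several patterns of presence and level within 32087 bases. The nearest coding gene to all of it is Zfp536, a zinc finger gene. Its first locus and 2 others, chr7:37194660-37195478 (1.49 and 0.324 scaled FPKM) and chr7:37197707-37199875 (1.03 and 0.430), were found in the knockout libraries only. The locus chr7:37201111-37204971, inside Gm29919, had higher values in wild type, as given above. The last locus, chr7:37211095-37214998, was nearly level, at 1.49 and 1.38 in wild type against 1.54 and 1.47 in knockout, a log2 difference of 0.04 with an adjusted p of 0.957 by limma. Next to it, chr7:37208476-37210572 measured 1.69 and 1.20 in wild type against 1.55 in knockout replicate 2. The remaining 2 loci, chr7:37187249-37188148 and chr7:37189753-37191860, were each found in 1 wild type library (0.573 and 0.711) and knockout replicate 2 (0.246 and 0.267).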

How the data were processed

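Liver RNA from 2 wild type and 2 Hjv knockout libraries was prepared with a TruSeq kit and read on a HiSeq 2000, per the labels' protocols. TopHat, Cufflinks and FastQC, with no version given, and mm9 appear in the submitters' processing notes. Each deposited value is an FPKM with a lower and an upper bound in the same unit, for loci assembled in each library on its own, per the file headers. Coordinates fit GRCm38: 99.3% of loci over 2000 bases overlap a GENCODE M21 gene, and the last chromosome Y locus ends at base 90812755. Deposited starts count from 0 and are given here from 1. Depth was read from the step between confidence bounds, taken as 1 fragment.

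Overlapping loci (1 base or more) of 500 bases or more were merged across libraries, separately for intergenic and other loci. A merged value is the mean FPKM of a library's loci weighted by length. Scaling used median ratios over 10478 merged loci present in all libraries (factors 0.918, 0.904, 1.24 and 0.928). Loci with 1 FPKM in at least 2 libraries were tested as log2(scaled FPKM + 1) in R 4.3.3 with limma 3.58.1 and a mean-variance trend, two-sided, with Benjamini-Hochberg adjustment over all 10203 tested. Differences on that scale understate those of low loci. Residual and prior degrees of freedom were 2 and 2.13. The fit was also run on simulated data in which both genotypes had the same spread. The pairs here did not, so no result rests on that run. Tables were made with Python 3.11.15 and pandas 2.3.3.

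Named loci were the 10 highest and the 5 longest in all libraries, up to 6 per direction with groups apart and a 2-fold ratio, and up to 6 per genotype with no locus in the other. Other loci of their runs, promoter loci and high loci lacking a value were added with their values in view. The members and lists were chosen with earlier results of these data known. The alternatives were other pseudocounts, filters, scalings, limma settings and values, a replicate block, each library left out and other membership rules. Genome sequence of the loci was not used here, so their base composition, repeats and reading frames were not analysed. RefSeq promoter windows (GRCm38.p6) gave the printed sequences.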

Additional observations from a re-analysis of the deposited data

How the results depend on the processing

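Under every alternative run, 0 intergenic loci passed an adjusted p of 0.05 by limma. The 16 named loci tested kept their direction in 254 of 256 values. The other filters, the limma settings, the replicate block and absent loci set to 0 leave the log2 difference itself unchanged. Values from those settings could not reverse, so the count overstates how far direction was tried. The 2 reversals were chr1:127710468-127719336 at -0.15 without WT replicate 2 (0.17 at most with 1 library left out) and chr15:76560512-76561058 at 0.31 without HJV_KO replicate 2 (-1.27 at least). Over all merged loci, 0 passed as fitted. That count was 12 with absent loci set to 0, and 0 to 391 with 1 library left out (4 without knockout replicate 1, 391 without knockout replicate 2). At an unadjusted p under 0.05 the 762 became 204 (without WT replicate 1) to 2252 (without knockout replicate 1), with 220 and 2173 without WT replicate 2 and knockout replicate 2. In these fits the lone library of a genotype is assumed to vary like the other group. The 11 intergenic loci higher without overlap became 2 of 6 tested at a filter of 5 FPKM (33.3%, against 15.3% of all merged loci). With absent loci set to 0 they became 19 of 87 (21.8%, against 19.3%). They became 11 to 23 with 1 library left out (23 without knockout replicate 2). Counting only the longest tested locus of each of the 32 runs gave 7 higher and 8 lower. That alternative was added after seeing the data and has no matching share over all merged loci. The 10 lower became 3 of 6 at 5 FPKM (50%, against 31.6%) and 3 of 41 on values as deposited (7.32%, against 9.24%). They became 16 of 41 with quantile normalization (39.0%, against 28.5%) and 28 of 87 with absent loci set to 0 (32.2%, against 23.7%). With 1 library left out they became 12 to 23 (23 without knockout replicate 1). Fewer loci pass a higher filter, more enter when absences count as 0, and 1 library has fewer chances to overlap than 2. The cause of the other changes was not tested. The median log2 difference of all merged loci was 0.03 as fitted, 0.22 as deposited and -0.07 with quantile normalization. Leaving out 2294 of 91231 loci outside the set whose FPKM exceeded the midpoint of its bounds by more than 3 times, also added after seeing the data, gave 0 calls and 927 at an unadjusted p under 0.05.

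The number of intergenic loci, 234 by the rule, was 121 at over 10000 bases from a gene, 665 at over 1000, 72 at 1000 bases or longer, 440 at 300 or longer, 111 in at least 3 libraries, 924 in at least 1, and 146 to 204 with 1 library left out (146 without knockout replicate 2). Counting any overlapping locus as presence raised knockout replicate 1 from 111 to 192 loci and lowered the wild type only class from 23 to 10.

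With the replicate number as a block, limma called 0 merged loci and 585 at an unadjusted p under 0.05. Overlap of the groups is read from the values and does not involve the block. The labels give these numbers no meaning, and the deviations of same-numbered libraries correlated at 0.0658, with 2 pairs. The planned comparison of base composition and repeats in the loci was not run. The weakest qualifying locus differed between libraries, from 0.0873 FPKM at 132 M fragments to 0.494 at 55.0 M, with 0.323 at 51.3 M, so lower levels could not be compared.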
